A study of Homo sapiens with 6 samples.

Results

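The HOX cluster genes were followed in H2087-LCC cells, a human lung adenocarcinoma (LUAD) population, under inhibition of TGFβ signaling and after 3 or 7 days of TGFβ. The members are genes of the deposited table whose symbol is HOX, a cluster letter from A to D and a number. Antisense and other noncoding transcripts of the clusters were left out by that rule. Of 21293 genes, 36 are described, with 10 in HOXA, 10 in HOXB, 9 in HOXC and 7 in HOXD. No expression value was used to choose them. H2087-LCC is a latency competent cancer (LCC) population that was selected in mice from H2087, an established line from a stage I LUAD with mutant RAS. The libraries fall into 3 groups of 2: cells given SB505124 (SB), which blocks the kinase of the type I receptor for TGFβ, for 3 days, cells given TGFβ for 3 days, and cells given TGFβ for 7 days. All were grown as bulk cultures of this 1 selected population, in medium with reduced serum, and differ by label only in the agent and its duration. There was no SB group at 7 days, so in that comparison the agent and the time in culture cannot be told apart.

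HOX genes encode homeodomain transcription factors that give cells their address along the head-to-tail axis of the embryo. In each cluster the genes stand in the order in which they are used: low paralogue numbers lie at the 3′ end and act early and toward the head, and high numbers lie at the 5′ end and act late and toward the tail. Genes with the same number in different clusters are paralogues. Polycomb complexes keep the clusters silent and trithorax complexes keep them active, and adult cells, those of the lung included, keep a HOX pattern that reflects their origin. HOX proteins bind DNA with partners of the TALE homeodomain class, such as PBX and MEIS proteins.

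Each library held between 34306283 and 36340734 normalized counts, the unit of the deposited table (reads per gene divided by a library size factor and rounded). From the low values 1 read was worth between 0.896 and 1.10 normalized counts, so a HOX gene at 50 rests on about as many reads. The treatment labels were checked on 5 direct TGFβ response genes, and 5 of 5 were higher at both times. For example, SMAD7, a feedback inhibitor of the pathway, was at 112 and 79 normalized counts in SB, 916 and 799 at 3 days and 854 and 747 at 7 days. Of the 9 LUAD markers, 1 was higher and 6 lower at both times against SB. The keratin KRT8 stayed between 33341 and 42692 in all libraries, whereas the lung factor NKX2-1 was at 2784 and 2908 in SB, 712 and 748 at 3 days and 853 and 857 at 7 days, and E-cadherin (CDH1) was at 371 and 635, 28 and 24, and 10 and 9. The part of this shift in the HOX values was not tested. The sum of the 9, most of it from keratins, was 105957 and 123822 in SB, 98913 and 111202 at 3 days and 102076 and 89158 at 7 days. Of the blood and endothelial markers, PTPRC and CD3E, which define leukocytes, were at 4 or less in every library. Endothelial markers were detected: KDR was at 98 and 225 in SB, 26 and 31 at 3 days and 70 and 53 at 7 days. PECAM1 was between 36 and 67, VWF at 13 or less and CDH5 at 20 or less. The sum of the 8 listed was between 4465 and 5278, with CD68 taking most of it. The 2 SB libraries differed more from each other than the other pairs did: the SD of the log2 difference over tested genes was 0.38 for the SB pair, against 0.28 and 0.27 for the TGFβ pairs at 3 and 7 days. The surfactant gene SFTPB showed this most plainly, at 1104 and 8273 in the SB libraries.

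Most of the HOXA, HOXB and HOXC genes were expressed, and of the 7 HOXD genes described all but HOXD8 were nearly silent. A mean of at least 10 normalized counts over the 6 libraries was reached by 27 of the 36 members: 9 in HOXA, 9 in HOXB, 8 in HOXC and 1 in HOXD. Only these entered the test. The 9 below it were HOXA9, HOXB1, HOXC12, HOXD1, HOXD4, HOXD10, HOXD11, HOXD12 and HOXD13. Among these, HOXC12 was at 2 and 1 in SB, 5 and 8 at 3 days and 9 and 5 at 7 days. HOXA9, a regulator of blood progenitors, was at 3 and 3, then 3 and 5, then 4 and 0. The other 7 did not pass 3 in any library. HOXB1, HOXD4 and HOXD10 had a single count in 1 of the 6 libraries.

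**Figure D1:**
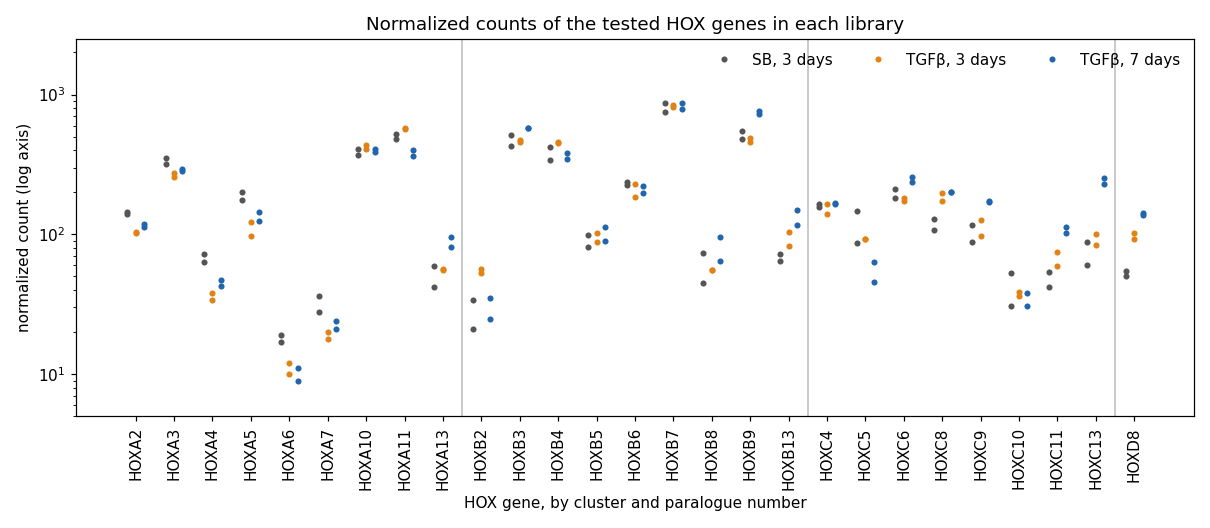
Normalized counts (log axis) of the 27 tested HOX genes in each of the 6 libraries, ordered by cluster and paralogue number. Each point is 1 library, in grey for SB, orange for TGFβ 3 days and blue for TGFβ 7 days. HOXB7 sits highest, between 747 and 871, and HOXA6 lowest, between 9 and 19.

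To compare levels between genes, the normalized counts were divided by the length of the annotated exons in kilobases (GENCODE on GRCh37, the build named hg19 by the authors). On this scale HOXB7 had the highest level of all members, 538.7 ± 32.5 per kilobase (SD, n = 6 libraries of 3 groups), and its lowest library, at 491.4, stood above every library of the next gene. HOXB9 followed at 222.7 ± 51.0, HOXB4, a gene used by blood stem cells, at 199.2 ± 24.8 and HOXA11, a gene of the forearm and the uterus, at 181.8 ± 32.3. These last 3 overlapped one another, and their order changed with the group: at 3 days HOXB9, at 187.9 and 177.9, lay below HOXB4 and HOXA11, and at 7 days, at 280.0 and 293.5, above both. HOXA10 came next at 108.8 ± 6.12 and did not overlap HOXA11. From HOXA5, at 83.9 ± 22.3, down to HOXA6, at 10.1 ± 3.15, each gene overlapped the one above it, so neighbours in this stretch are not separated, although genes further apart in it are. HOXC12, at 1.53 ± 0.97, lay below all 27 tested genes without overlap. The exon length counts every annotated exon, so a gene with long exons that these cells do not use has its level understated.

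The comparison of TGFβ at 3 days with SB asks what the first days of the signal do. Of the 27 tested HOX genes, 5 passed an adjusted p of 0.05, with 3 higher and 2 lower, or 18.5%. Over all 14395 genes tested the share was 29.0%, and 26.4% among the 7968 genes whose mean lay, like those of the tested HOX genes, from 10 to under 1000. The HOX median was 0.00 on the log2 scale and that of all genes was -0.02. The median size of a HOX change, regardless of sign, was 0.25, and that of all genes was 0.24. The libraries of the 2 groups did not overlap for 7 HOX genes that were higher and 6 that were lower, beside 30.3% and 32.9% of all tested genes.

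HOXD8, a gene of the trunk, had the smallest adjusted p at 3 days. It was at 55 and 50 normalized counts in SB and at 103 and 93 with TGFβ, so the groups did not overlap, and the log2 fold change was 0.89 ± 0.20 (SE; limma with Benjamini-Hochberg adjustment, adjusted p = 0.00536). HOXC8, which shapes the thoracic skeleton and the motor neurons of the forelimb, was at 108 and 129 and then at 198 and 172, a log2 fold change of 0.64 ± 0.17 (adjusted p = 0.0161). HOXB2, a hindbrain gene, was at 34 and 21 and then at 57 and 53, a log2 fold change of 1.01 ± 0.31 (adjusted p = 0.0302). Both genes were higher in both TGFβ libraries than in either SB library. The third member of paralogue group 8, HOXB8, was at 45 and 73 in SB and at 56 and 56 with TGFβ (log2 fold change -0.03 ± 0.28, adjusted p = 0.942).

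The genes that fell at 3 days lie side by side in HOXA. HOXA4, at chr7:27168126-27170399 on the minus strand, was at 63 and 72 in SB and at 38 and 34 with TGFβ (log2 fold change -0.89 ± 0.24, adjusted p = 0.0172). HOXA5, which the embryonic lung needs for its airways and alveoli, lies at chr7:27180671-27183300 on the same strand and was at 202 and 176 and then at 98 and 122 (log2 fold change -0.78 ± 0.19, adjusted p = 0.00897). For both genes the SB libraries stood above the TGFβ libraries. Their neighbours in the cluster had lower values with TGFβ but did not pass the adjusted threshold: HOXA2 at 145 and 140 and then 103 and 104 (adjusted p = 0.0734), HOXA3 at 319 and 351 and then 258 and 274 (adjusted p = 0.0969), HOXA6 at 19 and 17 and then 12 and 10 (adjusted p = 0.216) and HOXA7 at 36 and 28 and then 18 and 20 (adjusted p = 0.109). In all 6 genes from HOXA2 to HOXA7 the 2 groups did not overlap, and they are the 6 lower genes counted above beside the 32.9%.

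The annotation bears on these values. Of the HOXA4 exon bases, 31.3% lie in another gene on the same strand and 16.5% in an antisense gene, whereas HOXA5 shares none with either. The kit does not mark strand, so reads from a gene and from its antisense partner cannot be told apart, and HTSeq as a default leaves out reads that fall on exons of more than 1 gene. Its strand default assumes a stranded kit, and whether that was changed is not given in the sources used here, so how reads on antisense exons were counted is not known. Over all 36 members, 15 share exon bases with a gene on the same strand and 18 with an antisense gene. HOXA7 is the most affected of the tested genes by antisense exons, with 62.5% of its bases under HOXA-AS3, which was itself between 2 and 13 in all libraries. Each of the 5 calls at 3 days was lost when at least 1 of the 4 libraries was left out, and without the first TGFβ library 0 of 27 passed in limma, with 6 at an unadjusted p under 0.05. The share called over all genes was then 18.1%.

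**Figure D2:**
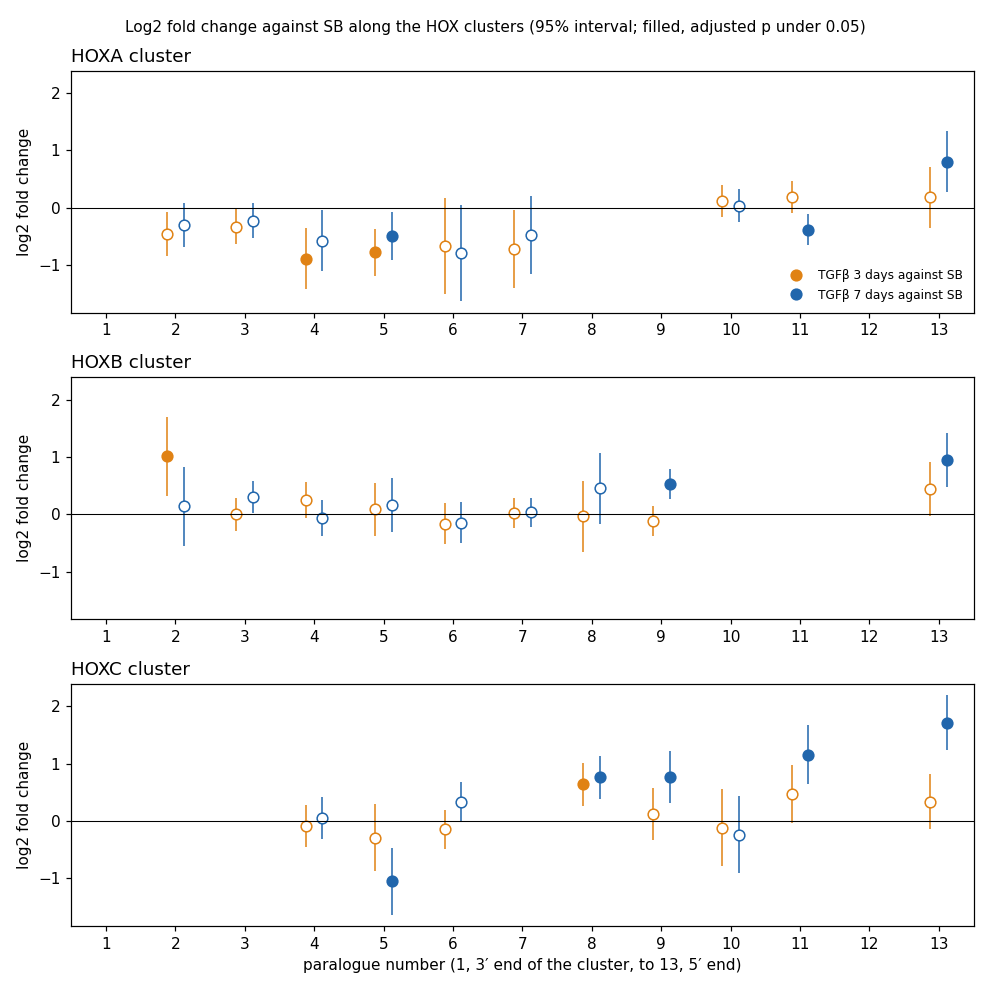
Log2 fold change against SB (vertical axis) by paralogue number (horizontal axis) for the tested genes of HOXA, HOXB and HOXC, at TGFβ 3 days (orange) and 7 days (blue). Bars are 95% intervals and filled points have an adjusted p under 0.05. HOXC13 reaches 1.72 at 7 days, and HOXA4 and HOXA5 lie below 0 at both times.

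At 7 days of TGFβ against SB more HOX genes had changed, and most of those stand at the 5′ ends of the clusters. Of the 27 tested, 11 passed, with 8 higher and 3 lower, or 40.7%, beside 54.5% of all tested genes (27.7% higher and 26.9% lower) and 48.3% of those with a mean from 10 to under 1000. The groups did not overlap for 11 HOX genes that were higher and 9 that were lower, beside 77.5% of all tested genes in either direction. The higher genes were HOXC13, HOXD8, HOXC11, HOXB13, HOXA13, HOXC8, HOXC9 and HOXB9, and the lower ones were HOXC5, HOXA5 and HOXA11. The HOX median was 0.05 against 0.00 over all genes. A change of more than 1 on the log2 scale, in either direction, was seen for 4 of the 27 and for 17.0% of all genes.

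HOXC held 5 of the 11 calls, of its 8 tested members, or 62.5%, beside 54.5% of all tested genes. HOXC13, a regulator of hair keratins, lies at the 5′ end of the cluster at chr12:54332615-54340328. It was at 60 and 88 normalized counts in SB, at 84 and 101 at 3 days and at 255 and 228 at 7 days. The 7-day libraries stood far above the other 4, and the mean was 3.26 times that of SB, with a log2 fold change of 1.72 ± 0.22 (adjusted p = 4.68e-05). An antisense gene, HOXC13-AS, covers 7.30% of its exon bases and was at 7 or less in every library. HOXC11, a gene of the lumbar and sacral region, was at 42 and 54 in SB, 59 and 75 at 3 days and 103 and 112 at 7 days. The 3 groups of HOXC11 did not overlap, and its log2 fold change at 7 days was 1.16 ± 0.23 (adjusted p = 0.00131). Its exons share no base with another annotated gene.

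HOXC9, which sets the identity of thoracic motor neurons, was at 88 and 116 in SB, 126 and 97 at 3 days and 171 and 173 at 7 days (log2 fold change at 7 days 0.76 ± 0.21, adjusted p = 0.00825). The SB and 3-day libraries of HOXC9 overlapped and the 7-day libraries lay above both. HOXC8 stayed above SB, at 202 and 200 (log2 fold change 0.76 ± 0.17, adjusted p = 0.00282). HOXC6 was at 182 and 212 in SB and 257 and 237 at 7 days, a difference of 0.33 ± 0.16 that did not pass (adjusted p = 0.1). HOXC10 lies between HOXC11 and HOXC9, and it was at 31 and 53 in SB and 31 and 38 at 7 days (log2 fold change -0.23 ± 0.31, adjusted p = 0.541). Its 95% interval, -0.91 to 0.44, overlapped that of HOXC9, 0.31 to 1.21, and not that of HOXC11, 0.65 to 1.67. The differences between these genes were not tested.

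HOXC5 fell at 7 days while HOXC4 did not pass the test. HOXC5 was at 146 and 87 in SB, 92 and 92 at 3 days and 63 and 46 at 7 days, a log2 fold change at 7 days of -1.05 ± 0.27 (adjusted p = 0.00554). The SB libraries of HOXC5 lie far apart, and the call was lost without the first of them or without the second 7-day library. HOXC4, which marks cervical and thoracic levels, was at 164 and 156, 139 and 164, and 165 and 167 (log2 fold change at 7 days 0.05 ± 0.17, adjusted p = 0.806). Of the HOXC5 exon bases 67.3% lie in another gene on the same strand, the highest share of any member. The 2 genes also share an upstream start, and in RefSeq (GRCh38.p14) the 250 bases before it are the same window, chr12:54016638-54016887 on the plus strand, for both. It is shown because 1 window stands before a gene that fell and a gene that did not pass, with the homeodomain core TAAT in capitals:
HOXC4 and HOXC5: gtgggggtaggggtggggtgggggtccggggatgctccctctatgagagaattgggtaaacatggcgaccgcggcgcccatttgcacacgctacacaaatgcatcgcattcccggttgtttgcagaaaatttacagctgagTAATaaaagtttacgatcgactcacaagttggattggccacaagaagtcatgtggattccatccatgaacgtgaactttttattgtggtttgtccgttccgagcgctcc
Which start these cells use was not measured.

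Of the 7 HOXD genes described, HOXD8 was the only one with enough counts to test. It was at 55 and 50 in SB, 103 and 93 at 3 days and 137 and 142 at 7 days. The 3 groups did not overlap, and the 7-day mean was 2.66 times that of SB, with a log2 fold change of 1.39 ± 0.20 (adjusted p = 1.02e-04). HOXD8 lies at chr2:176994422-176997423 on the plus strand, and 24.4% of its exon bases are also those of HOXD-AS2 on the other strand. The other 6 HOXD genes described, which lie on both sides of it, did not pass 3 normalized counts in any library.

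The windows of 250 bases before the RefSeq start of HOXD8, which rose at both times, and of HOXA4, which fell at 3 days, are given for comparison. The SMAD proteins that carry the TGFβ signal bind the motif CAGAC and also GC-rich motifs such as GGCGC. The first of these motifs, read on both strands, is in capitals, and it is in the HOXA4 window once (as its reverse complement) and not in that of HOXD8.
HOXD8 (GRCh38.p14, chr2:176129455-176129704, plus strand): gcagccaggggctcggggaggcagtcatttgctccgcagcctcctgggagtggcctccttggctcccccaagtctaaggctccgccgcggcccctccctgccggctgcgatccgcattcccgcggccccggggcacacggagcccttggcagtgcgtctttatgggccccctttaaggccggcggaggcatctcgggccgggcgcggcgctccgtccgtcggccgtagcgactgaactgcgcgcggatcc
HOXA4 (GRCh38.p14, chr7:27130758-27131007, minus strand): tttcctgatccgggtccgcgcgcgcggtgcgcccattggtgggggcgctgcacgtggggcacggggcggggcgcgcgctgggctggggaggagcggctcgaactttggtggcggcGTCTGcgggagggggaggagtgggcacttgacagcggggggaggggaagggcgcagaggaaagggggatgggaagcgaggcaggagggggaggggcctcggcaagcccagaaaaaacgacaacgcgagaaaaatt
GGCGC occurs 2 times in the HOXD8 window and 4 times in that of HOXA4. Windows were found for 19 of the 36 members, 26 windows in all. CAGAC is in 9 of the 26, or 34.6%, against 38.0% of all 35116 RefSeq windows, and GGCGC in 19, or 73.1%, against 44.5%. TAAT is in 19 of the 26, or 73.1%, against 47.4%, and TGATT, a PBX-type core, in 8, or 30.8%, against 31.4%. The windows of one gene can overlap and neighbouring genes can share them, as HOXC4 and HOXC5 do, so the 26 are not independent. A match says only that the letters are there. Windows of HOXC13, HOXC11, HOXC9, HOXC8, HOXB13, HOXB9, HOXB2 and HOXA5 were not analysed here.

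In HOXB the 2 genes nearest the 5′ end rose at 7 days. HOXB9, a thoracic gene at chr17:46698518-46703720, was at 480 and 547 in SB, 486 and 460 at 3 days and 724 and 759 at 7 days (log2 fold change at 7 days 0.53 ± 0.12, adjusted p = 0.00294). The SB and 3-day libraries overlapped and the 7-day libraries lay above them. HOXB13, known for its role in the prostate, stands apart from the rest of the cluster at chr17:46802125-46806112. It was at 64 and 72 in SB, 82 and 104 at 3 days and 149 and 117 at 7 days (log2 fold change at 7 days 0.95 ± 0.22, adjusted p = 0.00297), with no overlap between any of the groups. Neither gene shares exon bases with another annotated gene.

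The other 7 tested HOXB genes did not pass at 7 days. HOXB7, the most abundant, was at 869 and 747 in SB, 808 and 836 at 3 days and 871 and 782 at 7 days, and its 95% interval of the 7-day log2 fold change was -0.22 to 0.29. That interval overlapped the one of HOXB9, 0.27 to 0.80, at its edge, and the difference between the 2 genes was not tested. HOXB3 was at 427 and 510 and then 576 and 578 at 7 days (0.31 ± 0.13, adjusted p = 0.0629), and HOXB8 at 45 and 73 and then 96 and 65 (0.46 ± 0.28, adjusted p = 0.192). HOXB4, HOXB5 and HOXB6 had log2 fold changes of -0.06, 0.17 and -0.14, with standard errors between 0.14 and 0.21. HOXB2, which rose at 3 days, was back at 35 and 25 at 7 days, where it overlapped the SB libraries (0.14 ± 0.31, adjusted p = 0.723).

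HOXA had members in both directions. HOXA13, which patterns the hand and the genital tract, was at 42 and 59 in SB, 56 and 57 at 3 days and 81 and 95 at 7 days (log2 fold change at 7 days 0.80 ± 0.24, adjusted p = 0.0144). HOXA11, its neighbour, was at 524 and 479 in SB, 572 and 568 at 3 days and 403 and 365 at 7 days (-0.38 ± 0.12, adjusted p = 0.0206). It thus stood above SB in both 3-day libraries and below SB in both 7-day libraries, although the 3-day difference of 0.19 ± 0.12 did not pass (adjusted p = 0.293). Of its exon bases 27.2% are shared with HOXA11-AS on the other strand, which was at 94 and 103 in SB, 81 and 154 at 3 days and 139 and 116 at 7 days. HOXA5 was at 124 and 144 at 7 days, still below SB (-0.49 ± 0.19, adjusted p = 0.0438).

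Other HOXA genes kept lower values at 7 days without passing the test. HOXA4, at 47 and 43, lay below both SB libraries (-0.57 ± 0.24, adjusted p = 0.0649), as did HOXA6 at 9 and 11 (adjusted p = 0.0973), HOXA7 at 21 and 24 (adjusted p = 0.21), HOXA2 at 112 and 118 (adjusted p = 0.161) and HOXA3 at 282 and 291 (adjusted p = 0.193). Lower values without overlap were seen in 38.6% of all tested genes at 7 days. HOXA10, which acts in the uterus and the lumbar spine, was at 409 and 370, 438 and 405, and 389 and 408 (0.03 ± 0.13, adjusted p = 0.837).

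Of the 11 calls at 7 days, those of HOXB9, HOXB13, HOXC8, HOXC11, HOXC13 and HOXD8 held when each of the 4 libraries was left out in turn. Leaving out an SB library gave 6 calls (the first) or 13 (the second), and leaving out a 7-day library gave 10 (the first) or 6 (the second). HOXA11, HOXA13, HOXC5 and HOXC9 lost the call without the first SB or the second 7-day library, and HOXA5 lost it in 3 of the 4 refits and also with no filter on low values, with upper-quartile scaling and with the replicate number as a block.

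**Figure D3:**
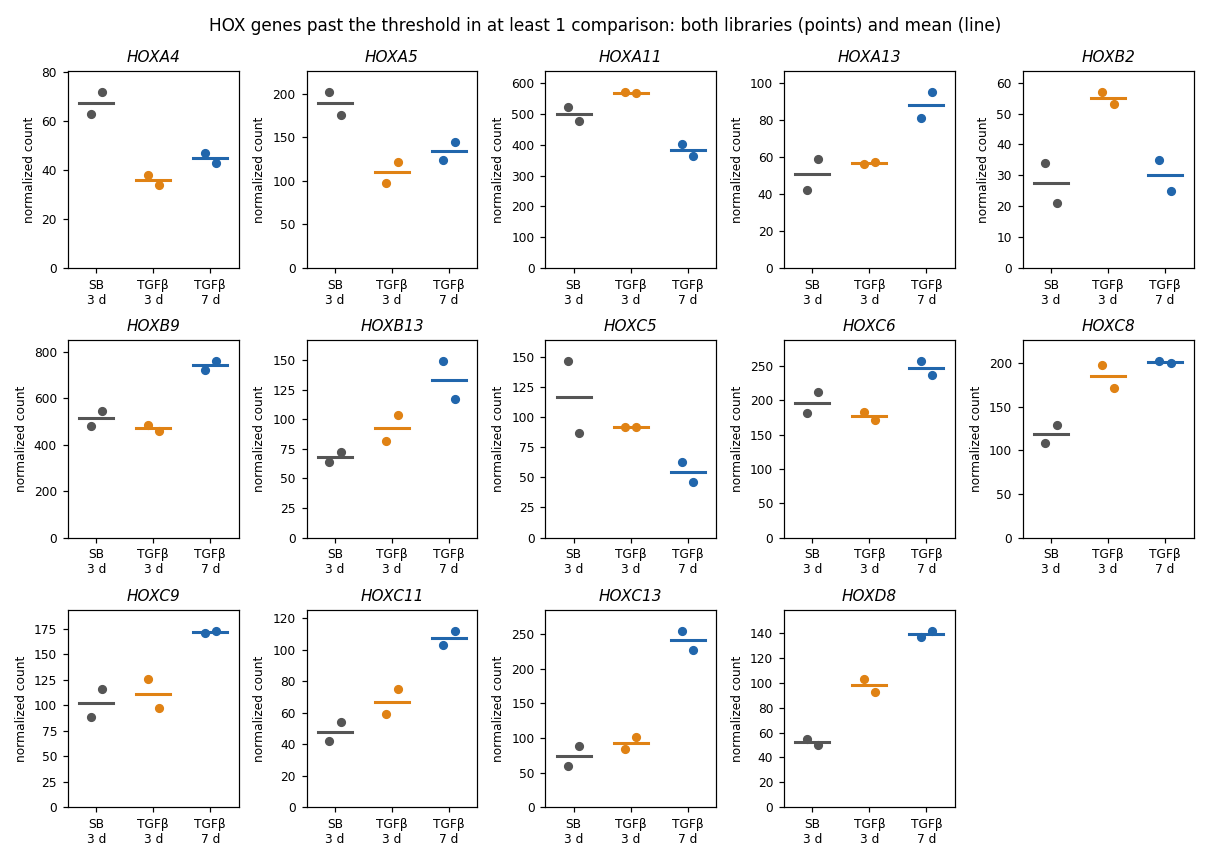
Normalized counts (vertical axes, from 0) in SB, TGFβ 3 days and TGFβ 7 days for the 14 HOX genes past the threshold in at least 1 of the 3 comparisons. Points are single libraries and lines are means. HOXC13 goes from 60 and 88 in SB to 255 and 228 at 7 days, HOXD8 climbs at both steps, and HOXB2 is high at 3 days.

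The comparison of 7 with 3 days of TGFβ separates the later from the earlier state under 1 agent. Of the 27 HOX genes 7 passed, with 5 higher and 2 lower, or 25.9%, against 33.2% of all tested genes and 27.6% in the range of means from 10 to under 1000. The higher genes were HOXC13 (log2 fold change 1.38 ± 0.22, adjusted p = 0.000891), HOXC11 (0.68 ± 0.23, adjusted p = 0.0421), HOXB9 (0.65 ± 0.12, adjusted p = 0.00229), HOXC9 (0.63 ± 0.21, adjusted p = 0.0351) and HOXC6 (0.47 ± 0.16, adjusted p = 0.039). The lower genes were HOXA11 (-0.57 ± 0.12, adjusted p = 0.00512) and HOXC5 (-0.76 ± 0.27, adjusted p = 0.0461). In each of the 7 the libraries of the 2 times did not overlap, which also held for other HOX genes (17 higher and 4 lower in all, of the 27) and for 69.1% of all tested genes.

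HOXC13 and HOXB9 kept this call without any 1 of the 4 libraries, and the other calls were each lost in at least 1 of these refits. HOXD8, HOXA13 and HOXB13 were higher at 7 than at 3 days without overlap and did not pass (adjusted p = 0.0677, 0.0669 and 0.0913). HOXC8, which rose early, differed by 0.12 ± 0.17 between the times (adjusted p = 0.621). HOXB2 was lower at 7 days by a log2 value of -0.87 ± 0.31 and missed the threshold (adjusted p = 0.0507). HOXA4 and HOXA5 were at higher values at 7 than at 3 days, by 0.31 ± 0.24 and 0.29 ± 0.19, and neither passed (adjusted p = 0.345 and 0.267).

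Read by position, the changes at 7 days lay mostly in the genes of paralogue groups 9 to 13. In this class 7 of 9 tested genes passed against SB, with 6 higher and 1 lower, beside 54.5% of all tested genes, and the median log2 fold change was 0.76. In groups 4 to 8, 4 of 14 passed, with 2 higher and 2 lower and a median of -0.01. In groups 1 to 3, 0 of 4 passed in limma, with 1 at an unadjusted p under 0.05 (HOXB3), and the median was -0.04. At 3 days, when 29.0% of all tested genes passed, the class of groups 9 to 13 had 0 of 9 past the threshold in limma, and 0 at an unadjusted p under 0.05, with a median of 0.18. Between 7 and 3 days it had 5 of 9, with 4 higher and 1 lower and a median of 0.63, beside 33.2% of all tested genes. All 3 tested genes of group 13, HOXA13, HOXB13 and HOXC13, rose at 7 days against SB, and neither tested gene of group 10 passed in any comparison. These classes were compared by counts and medians only, with no test between them.

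Over the 27 tested genes, paralogue number and the 7-day log2 fold change had a Pearson r of 0.57 and a Spearman rho of 0.51. The genes share their libraries and neighbours can share reads, so they are not independent replicates and the coefficients are descriptions. Within clusters rho was 0.32 in HOXA (9 genes), 0.57 in HOXB (9 genes) and 0.69 in HOXC (8 genes). At 3 days rho was 0.43 over all 27, 0.57 in HOXA, -0.32 in HOXB and 0.52 in HOXC, so the order of the clusters differed between the times.

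Summed over members, the HOX level was highest at 7 days. The sum over all 36 genes was 5322 and 5261 in SB, 5294 and 5390 at 3 days and 6016 and 5834 at 7 days. HOXC summed to 823 and 896, 922 and 920, and 1256 and 1206, and HOXD to 58 and 51, 109 and 98, and 142 and 147. HOXA was in the reverse order, at 1762 and 1695, 1596 and 1599, and 1472 and 1499. From 3 to 7 days, however, 6 of its 9 tested genes had a log2 fold change above 0 and 3 had one below. HOXA11 was among the 3, at 572 and 568 and then 403 and 365. Most of the HOXD sum was HOXD8, at 55 and 50, 103 and 93, and 137 and 142. HOXB was at 2679 and 2619, 2667 and 2773, and 3146 and 2982. By class, groups 9 to 13 summed to 1745 and 1842, 1951 and 1923, and 2321 and 2302, while groups 4 to 8 overlapped between SB and 7 days. These sums were not tested. The libraries are of bulk cells, so a lower count in all cells and the loss of a subset of cells cannot be told apart.

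**Figure D4:**
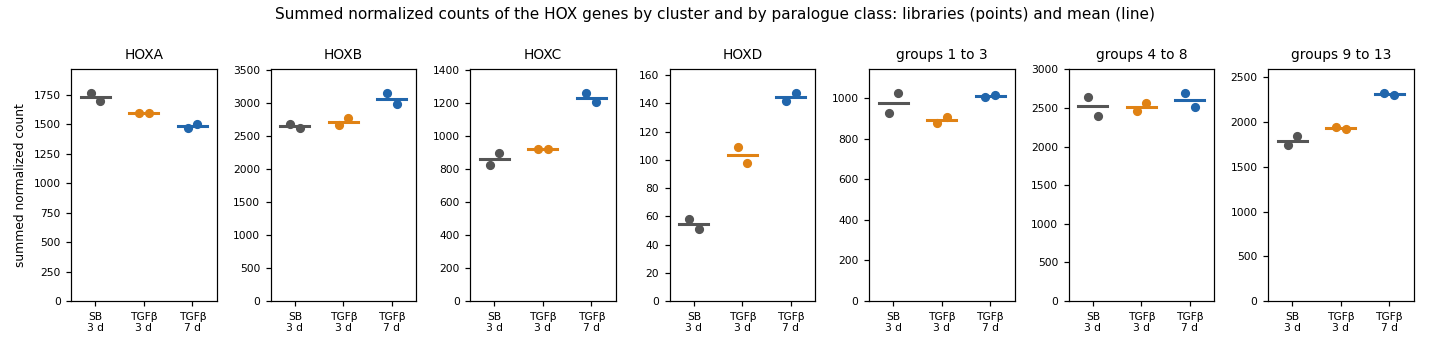
Summed normalized counts (vertical axes, from 0) of the members of each cluster and of 3 classes of paralogue groups in SB, TGFβ 3 days and TGFβ 7 days. Points are libraries and lines are means. HOXC, HOXD and groups 9 to 13 are highest at 7 days, while HOXA is at 1762 and 1695 in SB and at 1472 and 1499 at 7 days.

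The clusters also hold microRNA genes of the miR-10 and miR-196 families, which are known to pair with HOX messages. Their mature sequences from RefSeq (GRCh38.p14) are shown with the seed, bases 2 to 8, in capitals, since the sites they pair with sit in several of the genes described above. The 2 miR-196 forms have the same seed.
hsa-miR-196a-5p: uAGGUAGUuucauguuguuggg
hsa-miR-196b-5p: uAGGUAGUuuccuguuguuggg
hsa-miR-10a-5p: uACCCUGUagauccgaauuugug
The mature forms were not measured in these libraries of polyadenylated RNA. The row of MIR196A1, which makes miR-196a, was at 3 and 6 in SB, 8 and 5 at 3 days and 15 and 7 at 7 days. MIR10A was between 1 and 3.

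The letters ACTACCT, which pair with the miR-196 seed, are in the 3′ untranslated region of 8 of 36 HOX genes and of 7.00% of 19382 annotated genes. Among the tested genes these are HOXA5, HOXA7, HOXB6, HOXB7, HOXB13 and HOXC8, which at 7 days had moved in both directions or not passed. HOXB8 holds the long site for which the family is known, in which 21 of 22 bases pair with miR-196a and the last is a wobble pair within the seed. It is shown with 1 seed site each of HOXC8, which rose, and HOXA5, which fell (GRCh37, sense strand, the part facing the seed in capitals).
HOXB8, chr17:46690132-46690153: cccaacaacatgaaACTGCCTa
HOXC8, chr12:54405279-54405300: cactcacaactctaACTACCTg
HOXA5, chr7:27181006-27181027: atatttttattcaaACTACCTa
HOXC8 has 3 such sites and HOXA7 has 4. The letters ACAGGGT, which pair with the miR-10a seed, are in HOXA3 and HOXB3, 2 of 36, against 12.5% of all genes. Neither of them passed in any comparison.

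Other transcripts of the clusters were measured as well. Of 8 tested noncoding and antisense transcripts, 2 were higher and 0 lower at 3 days against SB. At 7 days 3 were higher and 0 lower, and between the times 1 higher and 0 lower. Over all tested genes 29.0%, 54.5% and 33.2% passed in these comparisons, in either direction. HOTAIR, which lies between HOXC11 and HOXC12, was at 20 and 34 in SB, 41 and 35 at 3 days and 88 and 93 at 7 days. The 7-day libraries stood apart, with a log2 fold change of 1.75 ± 0.29 against SB (adjusted p = 0.000323). HAGLR, antisense to HOXD1, was at 26 and 22, 50 and 39, and 49 and 68 (1.24 ± 0.28 at 7 days, adjusted p = 0.003). HOXD1 itself was between 1 and 3 in all libraries. HOXC-AS2, which shares exon bases with HOXC9 and HOXC6, was at 9 and 11, 25 and 25, and 22 and 16, and passed in the 3-day comparison with SB alone of the 3 (1.25 ± 0.35, adjusted p = 0.02).

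Genes just outside the clusters were examined as well. Of 14 tested, 2 were higher and 0 lower at 3 days, and 2 higher and 2 lower at 7 days. Among all tested genes the shares that passed were 29.0% and 54.5%. CALCOCO1, near the 5′ end of HOXC, was at 963 and 1184 in SB, 1734 and 1664 at 3 days and 3089 and 2953 at 7 days (1.50 ± 0.11 at 7 days, adjusted p = 4.95e-07). It also rose at 3 days (0.67 ± 0.11, adjusted p = 0.000717). SMUG1, on the other side of HOXC, was at 1116 and 956 in SB and 1036 and 1045 at 7 days (0.01 ± 0.11, adjusted p = 0.941).

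The TALE genes listed include those of the partners with which HOX proteins bind DNA, and also TGIF1 and TGIF2. Of 8 tested, 1 was higher and 1 lower at 3 days, 2 higher and 1 lower at 7 days, and 3 higher and 0 lower between the times. For all tested genes the shares were 29.0%, 54.5% and 33.2%. The calls at 3 days were those of TGIF1, higher, and TGIF2, lower. MEIS3 was at 9 and 26, 24 and 22, and 82 and 60 (2.11 ± 0.42 at 7 days, adjusted p = 0.00114). PBX2, a DNA-binding partner of HOX proteins, was at 1692 and 2058, 1675 and 1678, and 2184 and 2222, and passed between the times alone (0.39 ± 0.11, adjusted p = 0.0147). MEIS1, MEIS2, PBX3 and PKNOX1 did not pass in any comparison. The other TALE members that changed against SB, TGIF1 (0.85 ± 0.09 at 7 days, adjusted p = 1.05e-05) and TGIF2 (-0.58 ± 0.14 at 3 days, adjusted p = 0.00878), are known as corepressors that bind SMAD proteins.

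**Figure D5:**
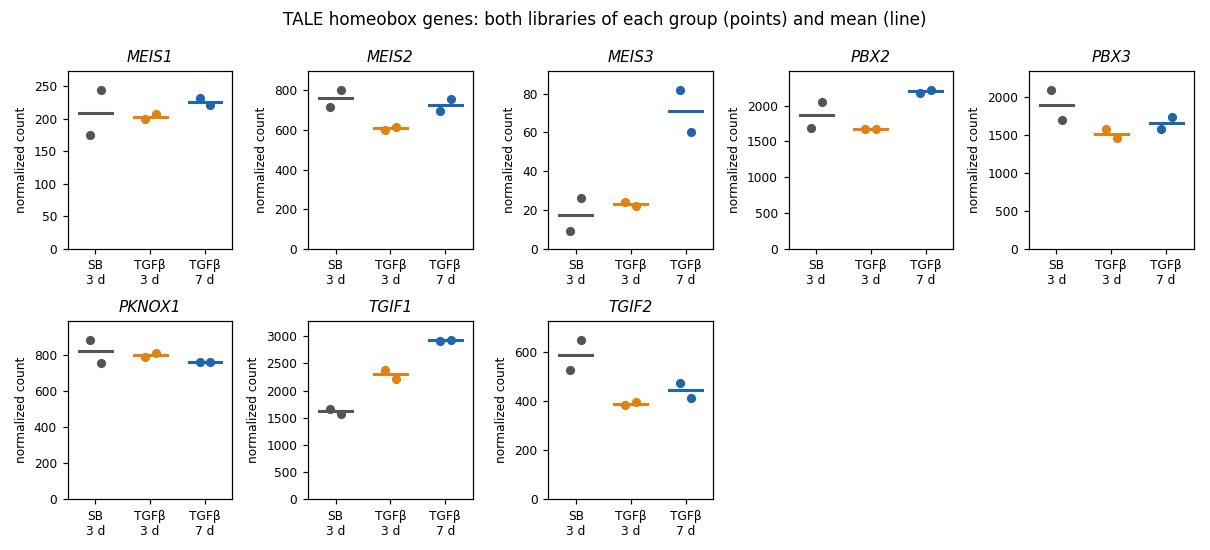
Normalized counts (vertical axes, from 0) of the 8 tested TALE homeobox genes in SB, TGFβ 3 days and TGFβ 7 days. Points are libraries and lines are means. MEIS3 is at 9 and 26 in SB and at 82 and 60 at 7 days, and the SB libraries of MEIS1, at 174 and 244, span those of the other groups.

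Regulators that act upstream of HOX genes in the embryo were mostly retinoid genes and hindbrain factors. Of 10 tested, 2 were higher and 1 lower at 3 days, 3 higher and 2 lower at 7 days, and 4 higher and 2 lower between the times. All tested genes passed at shares of 29.0%, 54.5% and 33.2%. RXRB, a partner of the retinoic acid receptors, was at 1679 and 1719 in SB, 2038 and 2160 at 3 days and 2536 and 2462 at 7 days (0.56 ± 0.09 at 7 days, adjusted p = 0.000261). CYP26B1, which breaks down retinoic acid, rose at 7 days, from 156 and 214 to 406 and 375 (1.09 ± 0.17, adjusted p = 0.000224). ALDH1A3, which makes retinoic acid, fell from 5818 and 6354 to 4221 and 4300 (-0.51 ± 0.08, adjusted p = 0.000283). CYP26A1 was at 13 and ALDH1A1 at 9 in the second SB library, and both were at 0 in the other 5.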

How the data were processed

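Polyadenylated RNA of 6 libraries was sequenced as 50-base pairs after a library kit that does not mark strand. The authors mapped the pairs to hg19 with STAR, counted them per gene with HTSeq 0.6.1p1 on an annotation release not given in the sources used here, and divided by library size. The deposited values, recorded under the unit score, hold whole numbers for 21293 genes, so a count model was not applied. Genes with a mean of 10 or more (14395) entered limma 3.58.1 on log2(value + 1) (R 4.3.3, empirical Bayes with a trend), group as the only term, all 6 libraries in 1 fit with 3 residual degrees of freedom, and p-values adjusted by Benjamini-Hochberg over all of them at 0.05. Fold changes on this scale understate those of low genes. Exact permutation of 2 against 2 libraries cannot go below p = 0.333, so none is given. The study describes paired libraries as technical replicates, so p-values may measure technical spread only. Depth was estimated from the gaps among low values, at 31989847 to 39958883 reads per library, and covers counting error only. Lists of TALE, Polycomb, MLL and KDM6, upstream, noncoding, neighbouring and marker genes were written by hand. The members and lists were chosen with earlier results of these data known. The rule names every tested member, and context genes from the lists. Of 37 genes that match the rule for members 1, and of the context genes 2, are not reported here, although the fit holds them. Annotation and coordinates are GENCODE on GRCh37, promoter windows and microRNAs RefSeq on GRCh38.p14. Alternatives were other pseudocounts, filters, scalings, limma without the trend, only the libraries compared, a replicate block and each library left out.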

Additional observations from a re-analysis of the deposited data

Results flagged for a closer look

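For 7 HOX genes the difference between TGFβ and the 3-day SB libraries changed between the times, by the limma test of 7 against 3 days (adjusted p under 0.05). Without an SB group at 7 days, longer TGFβ and longer culture cannot be told apart in this change. The 7-day difference minus the 3-day difference, on the log2 scale, was 1.38 for HOXC13, 0.68 for HOXC11, 0.65 for HOXB9, 0.63 for HOXC9 and 0.47 for HOXC6. It was -0.57 for HOXA11 and -0.76 for HOXC5. HOXC6 is the only one of the 7 that passed in neither comparison with SB. Both differences are set against the same SB libraries, which drop out of the result. The calls of HOXC13 and HOXB9 held without each of the 4 libraries in turn, and those of HOXC5, HOXC6 and HOXC11 were lost in all 4 of these refits.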

How the results depend on the processing

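The alternatives gave 1119 values of single HOX genes, of which 1013 kept their direction and side of the threshold, 49 lost the call, 21 gained it and 36 changed sign, 0 of them in a gene that had been called. The number called was 5 at 3 days against SB, and became 3 with a mean of at least 50 and 8 without the trend. It was 7 between 7 and 3 days, and became 3 with no filter on low values and 11 with only the 4 libraries compared. At 7 days against SB, where it was 11, no setting other than leaving out a library moved it by over 1.5 times. With a library left out, which leaves 1 library in a group that is assumed to vary like the others, the counts were 0 to 4 at 3 days (0 without the first TGFβ library, with 6 at an unadjusted p under 0.05, and 3 without the second TGFβ or the second SB library), 6 to 13 at 7 days (6 without the first SB or the second 7-day library) and 2 to 4 between the times (2 without the second 7-day library). The labels do not say whether the replicate numbers pair the samples. Deviations of same-numbered libraries had correlations of 0.14, -0.10 and -0.29 between groups, which cannot settle it. With the replicate block the numbers called were 5, 10 and 7. Under the block HOXA5 lost its 7-day call (adjusted p = 0.0524), and between the times HOXC6 lost its call (adjusted p = 0.0569) and HOXB2 gained one (adjusted p = 0.0372), so 6 of the 7 were shared. Equal library totals moved the median of all genes by under 0.1. Scaling changed the sign of 7 values. At 3 days HOXB3 became 0.0083 with median-of-ratios size factors and 0.0118 with the upper quartile, and HOXB7 -0.027 with equal totals. At 7 days HOXA10 became -0.0136 and HOXB7 -0.0132 with equal totals. Between the times HOXB6 became 0 and HOXB7 -0.0104 with median-of-ratios size factors. With a library left out, the values at 3 days ran from -0.0615 to 0.419 for HOXA13, -0.66 to 0.0797 for HOXC5, -0.0687 to 0.326 for HOXC9, -0.129 to 0.127 for HOXB3, -0.0558 to 0.231 for HOXB5, -0.0803 to 0.138 for HOXB7, -0.377 to 0.309 for HOXB8, -0.489 to 0.266 for HOXC10 and -0.201 to 0.0359 for HOXC4. At 7 days they ran from -0.215 to 0.0877 for HOXB4, -0.0378 to 0.106 for HOXA10, -0.194 to 0.476 for HOXB2, -0.0743 to 0.144 for HOXB7 and -0.612 to 0.143 for HOXC10. Between the times they ran from -0.0803 to 0.245 for HOXB5, -0.139 to 0.172 for HOXB6, -0.0717 to 0.0836 for HOXB7, -0.258 to 0.005 for HOXA6 and -0.266 to 0.0197 for HOXC10.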

Other observations

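Genes of the complexes that keep HOX clusters silent or active were measured too. Of 30 Polycomb genes tested, 4 were higher and 5 lower at 3 days against SB. At 7 days 9 were higher and 8 lower, and between the times 5 higher and 3 lower. The shares of all tested genes that passed, in either direction, were 29.0%, 54.5% and 33.2% in these comparisons. EZH2, the methyltransferase of Polycomb complex 2 in dividing cells, was at 2661 and 2509 in SB, 2009 and 1900 at 3 days and 1550 and 1671 at 7 days (-0.68 ± 0.09 at 7 days, limma adjusted p = 7.8e-05). Its relative EZH1 was at 819 and 882, 1188 and 1168, and 1490 and 1516 (0.82 ± 0.10, adjusted p = 3.02e-05). JARID2, which guides the complex to its targets, rose from 1633 and 1765 in SB to 4972 and 4637 at 7 days (1.50 ± 0.09, adjusted p = 8.12e-08). PHF19, another subunit, fell from 5463 and 4376 to 2575 and 2385 (-0.98 ± 0.11, adjusted p = 1.98e-05).

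Of 13 MLL and KDM6 genes tested, which act on the active side, 1 was higher and 1 lower at 3 days. At 7 days 4 were higher and 2 lower, and between the times 0 higher and 1 lower. The shares over all tested genes were again 29.0%, 54.5% and 33.2%. KDM6B, a demethylase that removes the Polycomb mark, was at 398 and 550 in SB, 818 and 946 at 3 days and 1026 and 785 at 7 days (0.94 ± 0.17 at 7 days, adjusted p = 0.000631). WDR5, a core subunit of the MLL complexes, fell from 4407 and 3954 to 2789 and 2756 at 7 days (-0.59 ± 0.09, adjusted p = 0.000146). Whether these genes bear on the HOX values was not tested.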
